A study of Mus musculus with 9 samples.

Results

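The 10 genes described here encode parts of the machinery of lytic cell death, in which a dying cell bursts and spills its contents. They were named in advance by symbol as Ripk1, Ripk3, Mlkl, Casp1, Casp4, Casp8, Gsdmd, Nlrp3, Pycard and Il18, and all 10 were found among the 34669 genes of the deposited table. The tissue was kidney cortex from male wild-type C57BL/6 mice aged 10 weeks, sequenced as messenger RNA in 3 groups of 3 libraries. The vehicle group and the TJ0113 group had both renal pedicles clamped for 30 min (bilateral ischemia-reperfusion injury, bIRI), were gavaged each day with vehicle or with TJ0113, a compound, starting 3 days ahead of the operation, and were killed on day 14. The sham group was operated on without clamping. No day and no gavage are recorded for it in the sources used here, so clamping and gavage cannot be told apart in a difference from sham. TJ0113 is known here by its code name, its dose is not known from the sources used here, and the treatment labels of the samples write it as TJ013.

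Necroptosis runs through receptor-interacting kinases. RIPK1, recruited to death receptors, can engage RIPK3, which phosphorylates the pore-forming effector MLKL, and caspase-8 cleaves the kinases and holds the route in check. Pyroptosis runs through inflammasomes, in which a sensor such as NLRP3 gathers the adaptor ASC (gene Pycard) and activates caspase-1. Caspase-1, and the mouse caspase-11 encoded by Casp4, cleave gasdermin D (Gsdmd), whose fragments open pores in the cell membrane, and caspase-1 also cuts the precursor of interleukin-18 (Il18). In the kidney both routes are known from the tubular epithelium and from the leukocytes that enter after ischemia. Messenger RNA shows neither the cleavage nor the phosphorylation on which these routes depend.

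Values are FPKM, fragments scaled to gene length and library depth, so levels of different genes can be set side by side. The libraries held 31222362 to 42736769 fragments, read from the size of the smallest steps in the table. In sham the members rested on 11.5 fragments (Nlrp3, library 3) to 1366.5 fragments (Casp8, library 3), counted in steps of 0.5. Casp1 did not fall on these steps, and its 12.4 to 18.4 fragments in sham are approximate. Counting error is thus large for Nlrp3 and Casp1 in sham and small for Casp8 and Ripk1. The groups differed in spread. On the first principal component, which held 75.5 percent of the variance, vehicle library 2 lay at -8.03, between the sham libraries (-61.7 to -52.5) and the other two vehicle libraries (30.8 and 70.6).

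In sham cortex the order of levels ran from Casp8 (12.0 ± 1.35 FPKM, SD, n = 3) and Ripk1 (4.43 ± 0.274 FPKM) through Il18 (2.19 ± 0.209 FPKM), Gsdmd (2.10 ± 0.512 FPKM) and Pycard (1.17 ± 0.0352 FPKM) to Mlkl (0.477 ± 0.110 FPKM), Ripk3 (0.399 ± 0.0631 FPKM), Casp4 (0.370 ± 0.112 FPKM), Casp1 (0.274 ± 0.0524 FPKM) and Nlrp3 (0.110 ± 0.0448 FPKM). Il18 and Gsdmd did not differ beyond their spread, nor did neighbours in the run from Mlkl to Casp1. The regulator and the initiating kinase thus stood above the executioners and the sensor. In the vehicle group Casp8 was still first, but Gsdmd was second (10.9 ± 6.14 FPKM, SD, n = 3) and Casp4 (4.90 ± 2.17 FPKM) had the same mean as Ripk1 (4.90 ± 0.756 FPKM). Below Casp8 every pair of neighbours in the vehicle order overlapped. The same 3 genes led with TJ0113, Casp8 at 21.2 ± 5.76, Gsdmd at 10.3 ± 4.37 and Casp4 at 4.56 ± 2.32 FPKM (SD, n = 3).

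**Figure D1:**
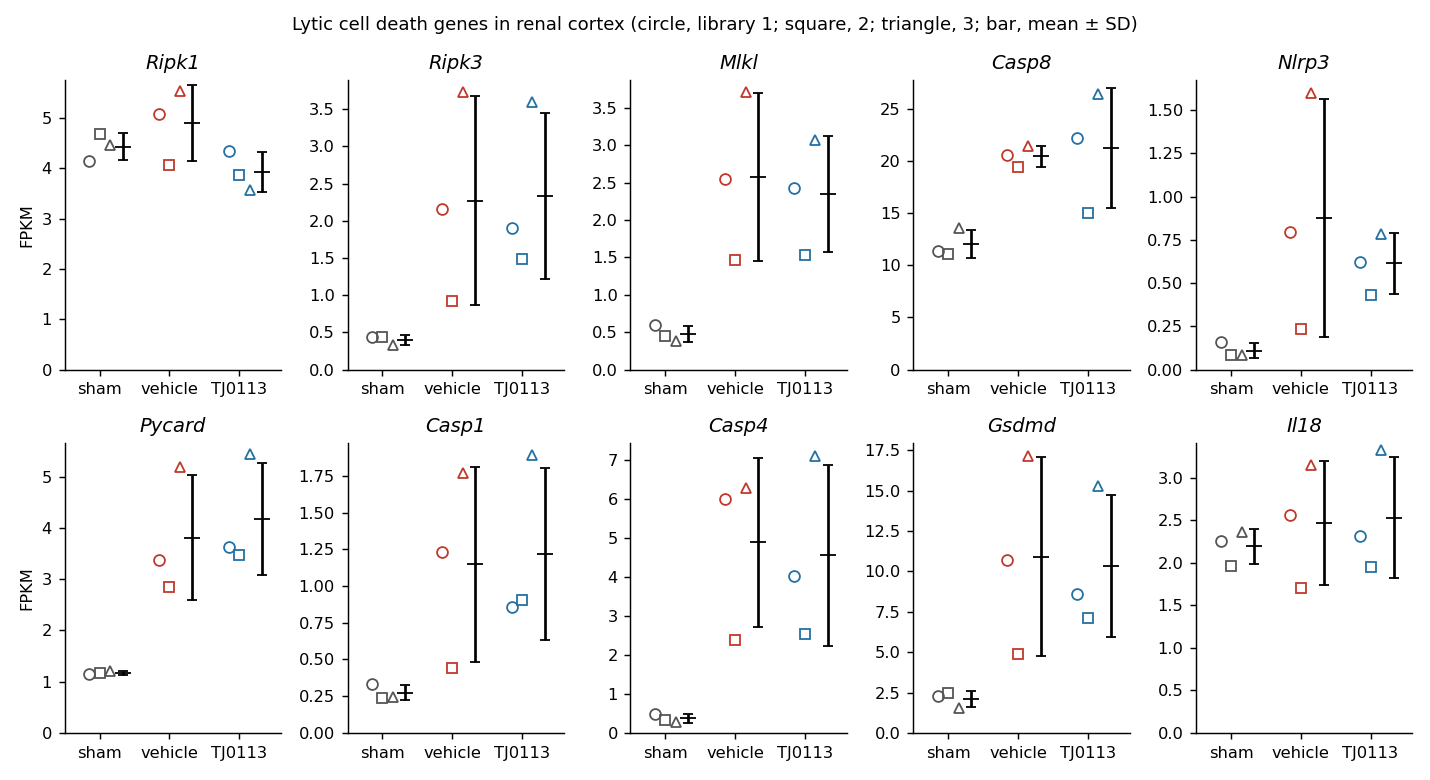
FPKM of the 10 members (vertical axes, each from 0) in sham, vehicle and TJ0113 libraries, with 1 symbol per library and a bar for the mean ± SD of 3 libraries. Casp4 stayed under 0.5 FPKM in sham and lay between 2.39 and 7.10 FPKM in the injured libraries, while the groups of Ripk1 and of Il18 overlapped.

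Vehicle-treated bIRI, taken on day 14, was compared with sham, for which no day and no gavage are recorded. The adaptor gene Pycard and the caspase gene Casp4 rose to 3.25 and 13.2 times their sham means. The pore former genes Mlkl and Gsdmd, the partner kinase gene Ripk3, Casp8 and Nlrp3 rose as well, but on calls that some single libraries or settings undid, and Ripk1, Casp1 and Il18 did not pass. Differences were tested with limma on log2(FPKM + 1) over the 15453 genes averaging 0.5 FPKM or more in the 9 libraries, with Benjamini-Hochberg adjustment, and a gene is said to rise or fall where the adjusted p is below 0.05. The median gene was 0.30 higher in vehicle than in sham on this log2 scale, and log2 differences from sham are given relative to it, while the test is of the difference as fitted. The added 1 FPKM shrinks the log2 difference of a low gene, so the ratio of mean FPKM is given as well. Nothing in the sources used here says which libraries were prepared together, so the p-values measure only the spread between these samples. In bulk tissue, fewer cells of a type and less RNA per cell cannot be told apart, nor can more cells and more RNA in each.

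Ripk1 was at 4.14, 4.68 and 4.47 FPKM in sham libraries 1 to 3 and at 5.08, 4.06 and 5.54 FPKM with vehicle. These groups overlapped, and the log2 difference was -0.18 ± 0.13 (SE) relative to the median gene and 0.11 as fitted (limma, Benjamini-Hochberg adjusted p = 0.510). Of the exon bases of Ripk1, 9.0 percent are shared with Serpinb6a on the opposite strand or with Gm17084 on the same strand, and the strand setting of the counting was not stated in those sources. Ripk3 was at 0.434, 0.437 and 0.326 FPKM in sham and at 2.16, 0.923 and 3.73 FPKM with vehicle. Every vehicle library was above every sham library, library 3 the highest and library 2 the lowest. Ripk3 rose by 0.83 ± 0.32 (SE) on the log2 scale, with a mean 5.69 times that of sham (limma, Benjamini-Hochberg adjusted p = 0.0262). The call was lost without sham library 1, 2 or 3 (limma, Benjamini-Hochberg adjusted p = 0.0634, 0.0748 and 0.0818), without vehicle library 1 (0.0688) or 3 (0.0753), and with no filter on low values (0.0723).

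Mlkl, the membrane pore former of necroptosis, was at 0.598, 0.454 and 0.381 FPKM in sham and at 2.55, 1.47 and 3.71 FPKM with vehicle. The groups did not overlap, and vehicle library 2 was again the lowest of its group. Mlkl rose by 0.93 ± 0.25 (SE), to 5.40 times the sham mean (limma, Benjamini-Hochberg adjusted p = 0.0113; 0.0502 without sham library 2). Casp8, the brake on this route and an initiator of apoptosis, was at 11.4, 11.1 and 13.6 FPKM in sham and at 20.6, 19.4 and 21.4 FPKM with vehicle. All vehicle libraries lay above sham, close together. Casp8 rose by 0.43 ± 0.19 (SE), to 1.70 times the sham mean (limma, Benjamini-Hochberg adjusted p = 0.0207). This call rested on scaling and on single libraries. It was lost with median-ratio scaling (limma, Benjamini-Hochberg adjusted p = 0.196), quantile normalization (0.0827) and the median gene set equal (0.172), with no filter on low values (0.0507), and without any 1 of sham libraries 1 to 3 or of vehicle libraries 1 and 3 (0.0526 to 0.0765).

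Of the canonical inflammasome, the adaptor kept its call in every setting, and the sensor and the caspase lay near the threshold. Nlrp3, the sensor of danger signals, was at 0.161, 0.0858 and 0.0815 FPKM in sham and at 0.797, 0.234 and 1.60 FPKM with vehicle. The groups did not overlap, although vehicle library 2 was close to sham. Nlrp3 rose by 0.40 ± 0.23 (SE), to 8.0 times the sham mean, the ratio of a very low level (limma, Benjamini-Hochberg adjusted p = 0.0446). It lost the call with no filter on low values (limma, Benjamini-Hochberg adjusted p = 0.0984), quantile normalization (0.167) and the median gene set equal (0.168), and without any 1 library (0.0526 to 0.115) other than vehicle libraries 2 and 3. Without vehicle library 3 its mean fell under the filter.

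Pycard, which encodes the ASC adaptor, was at 1.14, 1.17 and 1.21 FPKM in sham and at 3.38, 2.86 and 5.18 FPKM with vehicle. The sham libraries were almost level, and all vehicle libraries lay above them. Pycard rose by 0.82 ± 0.20 (SE), to 3.25 times the sham mean (limma, Benjamini-Hochberg adjusted p = 0.00947), and it kept its call in all 20 alternative settings (highest 0.0445). Of its exon bases 12.8 percent are shared with Gm45205 on the opposite strand. Casp1, the caspase that ASC recruits, was at 0.335, 0.241 and 0.247 FPKM in sham and at 1.23, 0.442 and 1.77 FPKM with vehicle. The groups did not overlap, but Casp1 missed the threshold at 0.41 ± 0.25 (SE), with 4.18 times the sham mean (limma, Benjamini-Hochberg adjusted p = 0.0508). It passed in 6 of 19 alternatives, namely a pseudocount of 0.1 (limma, Benjamini-Hochberg adjusted p = 0.0285), equal FPKM sums (0.0415), the replicate number as a block (0.0266), sample weights (4.44e-06), and the fits without vehicle library 2 (0.00558) or TJ0113 library 3 (0.0386).

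The non-canonical caspase had the largest difference of the 10. Casp4, whose product in mice is the sensor of cytosolic lipopolysaccharide known as caspase-11, was at 0.496, 0.336 and 0.279 FPKM in sham and at 6.01, 2.39 and 6.29 FPKM with vehicle. All vehicle libraries were far above sham, with libraries 1 and 3 nearly equal. Casp4 rose by 1.73 ± 0.34 (SE), to 13.2 times the sham mean (limma, Benjamini-Hochberg adjusted p = 0.00878), and kept its call in all 20 alternative settings (highest 0.0428). Gsdmd, the shared substrate of both caspases, was at 2.29, 2.50 and 1.52 FPKM in sham and at 10.7, 4.88 and 17.2 FPKM with vehicle. The groups did not overlap, and vehicle library 3 was far above vehicle library 2. Gsdmd rose by 1.51 ± 0.39 (SE), to 5.19 times the sham mean (limma, Benjamini-Hochberg adjusted p = 0.0133), and lost the call without sham library 2 (0.0502) or 3 (0.055). Il18, the cytokine precursor, was at 2.26, 1.96 and 2.36 FPKM in sham and at 2.56, 1.70 and 3.14 FPKM with vehicle. Vehicle library 2 was below all sham libraries and the other two above. Il18 had a log2 difference of -0.20 ± 0.19 (SE) relative to the median gene and 0.10 as fitted (limma, Benjamini-Hochberg adjusted p = 0.690).

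Casp1 and Casp4 lie side by side on the same strand of mouse chromosome 9, at 5298517-5307265 and 5308828-5336783 in GENCODE M21 on GRCm38. RefSeq start sites on GRCm38.p6 were on hand for 9 of the 10 members (12 starts), and not for Gsdmd. The 250 bases before the start are shown for this neighbouring pair and for Nlrp3, since transcription of Casp4 and Nlrp3 is known to be primed by NF-kB in mouse macrophages. Capitals mark matches to the kappa-B motif, searched by its consensus on both strands.
Casp4, chr9:5308599-5308848, plus strand: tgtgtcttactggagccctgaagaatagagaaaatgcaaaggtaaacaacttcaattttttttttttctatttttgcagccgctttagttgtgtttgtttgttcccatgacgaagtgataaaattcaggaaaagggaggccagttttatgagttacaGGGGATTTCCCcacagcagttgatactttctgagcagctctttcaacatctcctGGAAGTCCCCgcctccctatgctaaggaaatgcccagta
Casp1, chr9:5298267-5298516, plus strand: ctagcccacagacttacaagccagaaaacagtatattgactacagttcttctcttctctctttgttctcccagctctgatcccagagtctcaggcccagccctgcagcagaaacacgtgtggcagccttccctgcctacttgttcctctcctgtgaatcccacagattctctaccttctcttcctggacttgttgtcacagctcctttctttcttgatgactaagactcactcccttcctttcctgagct
Nlrp3, chr11:59541319-59541568, plus strand: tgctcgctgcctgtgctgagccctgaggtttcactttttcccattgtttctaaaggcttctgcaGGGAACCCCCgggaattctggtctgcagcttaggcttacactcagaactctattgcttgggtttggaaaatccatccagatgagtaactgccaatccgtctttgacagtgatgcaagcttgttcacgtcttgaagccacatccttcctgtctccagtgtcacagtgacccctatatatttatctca
The Casp4 window held 3 matches, 2 of which overlap in the run GGGGATTTCCC, and both Casp4 starts share them. Nlrp3 held 1 match before the start shown and none before its other start, and Casp1 held none. Casp4 and Nlrp3 were the only 2 of the 9 members with a start site that held a match. Of all 32851 RefSeq starts 7.25 percent held at least 1 match in such a window. Shares of all starts are per start, while members are counted by gene over any of their starts, so they are unlike measures. The interferon-response core (GAAA, any 2 bases, GAAA), present before 2.98 percent of all starts, and the AP-1 motif TGANTCA (6.75 percent) matched before none of the members' starts, and the STAT motif TTCNNNGAA (7.02 percent) matched before 1 of the Ripk1 starts. A match is a run of letters and not a shown binding site.

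Counted over the members, 7 of 10 rose and none fell between sham and vehicle, where 31.3 percent of all genes tested rose and 5.42 percent fell (36.7 percent called in all). The groups did not overlap, vehicle higher, for 8 of 10 members, against 45.9 percent of all genes. The median log2 difference of the members was 0.62 relative to the median gene. These counts describe the 10 genes and are no test of the list. Ripk3, Mlkl, Casp1, Casp4 and Nlrp3 had sham means under 0.5 FPKM and passed the filter on low values only through the injured groups. Of these 5, 4 rose, and so did 53.5 percent of all genes with such sham means. Among the 5 members with a sham mean of at least 0.5 FPKM, 3 rose, namely Casp8, Gsdmd and Pycard, where 29 percent of such genes did. With no filter on low values 4 of 10 members rose, against 7.17 percent of the 34669 genes. Only 15453 of those averaged 0.5 FPKM or more, as all 10 members did, so these shares are not of like genes. The balance of all calls moved with scaling, since 85.3 percent of calls were higher on the deposited scale, against 48.6 percent with median-ratio scaling, 46.8 percent with quantile normalization and 38.7 percent with the median gene set equal. Under these 3 scalings, in that order, 15.3, 13.2 and 11.8 percent of the genes tested rose, and 5 members rose under each.

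**Figure D2:**
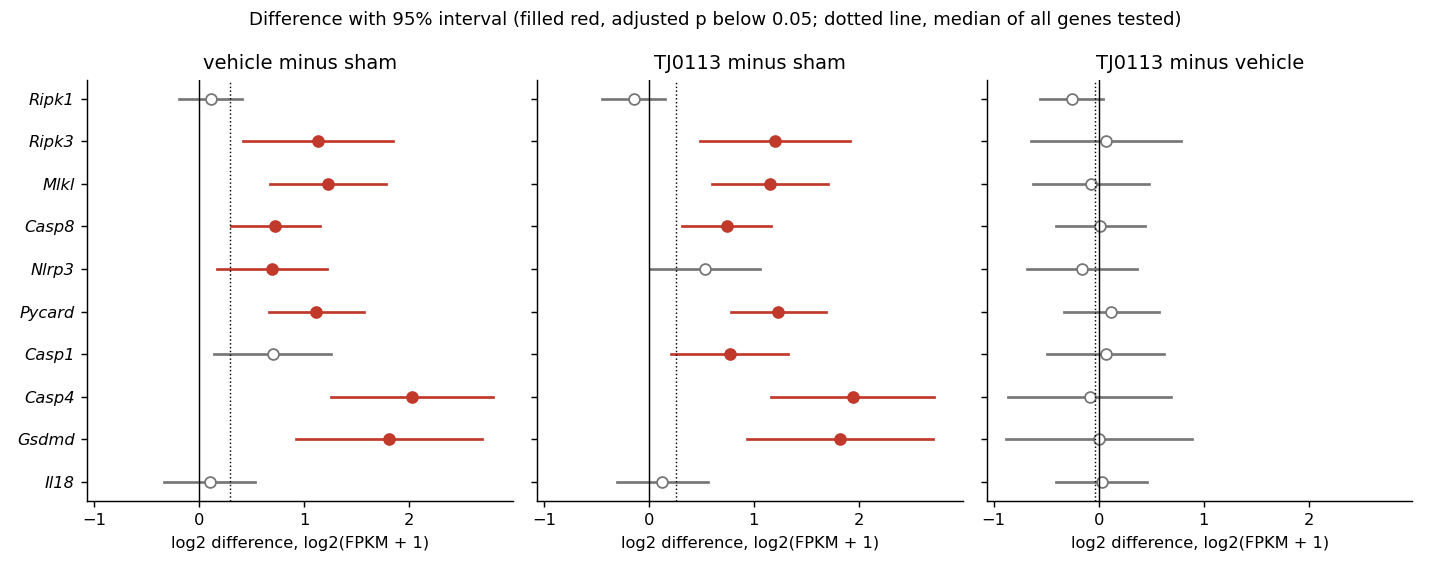
Log2 difference on the log2(FPKM + 1) scale as fitted (horizontal axes) with its 95% interval from limma for the 10 members in the 3 comparisons, filled where the adjusted p is below 0.05. Both comparisons with sham have 7 filled points to the right of the dotted line at the median gene, and the comparison of TJ0113 with vehicle has none.

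Markers of several, though not all, cell types moved with these genes. Behind the counts below, 31.3 percent of all genes tested rose with vehicle and 28.9 percent with TJ0113. Against sham 5.42 percent fell with vehicle and 5.92 percent with TJ0113. Of genes with a sham mean under 0.5 FPKM, 53.5 percent rose with vehicle and 51.3 percent with TJ0113. All tested T and NK cell markers but Trac had such sham means, as did some markers of other lists. High proximal tubule markers in sham go with the labelled cortex. The summed level of 14 macrophage markers was 46.0 to 66.8 FPKM in sham, 315 to 1885 FPKM with vehicle and 545 to 1069 FPKM with TJ0113, and 12 of the 13 tested rose in each comparison with sham. The 8 injured tubule markers summed to 427 to 455 FPKM in sham, 4875 to 14107 FPKM with vehicle and 3844 to 14043 FPKM with TJ0113, and all 8 rose in both. Spp1 made up most of that sum, and the other 7 summed to 65.7 to 78.5 FPKM in sham, 316 to 867 FPKM with vehicle and 255 to 672 FPKM with TJ0113. The 8 fibroblast and pericyte markers, which also all rose, went from 22.1 to 30.0 FPKM in sham to 78.8 to 335 FPKM with vehicle and 154 to 249 FPKM with TJ0113. Of the 12 proximal tubule markers 8 fell with vehicle and 4 with TJ0113. They summed to 41448 to 48683 FPKM in sham, 2011 to 27790 FPKM with vehicle and 7706 to 27915 FPKM with TJ0113, but Kap, which passed in neither comparison, made up most of the sum in sham and was lowest, at 653 FPKM, in vehicle library 3. Without Kap the other 11 summed to 4630 to 5121 FPKM in sham, 1358 to 3374 FPKM with vehicle and 1932 to 3278 FPKM with TJ0113. The 10 neutrophil markers summed to 0.714 to 1.74 FPKM in sham, 3.58 to 27.3 FPKM with vehicle and 4.16 to 37.3 FPKM with TJ0113. Only 2 of them passed the filter and 1 rose, Ly6g was at 0 in all sham libraries and in 3 injured ones, and Elane in 8 of 9 libraries. Of 10 T and NK cell markers 7 were tested, and 4 rose with vehicle and 5 with TJ0113, with sums of 1.91 to 2.87 FPKM in sham, 4.59 to 15.9 FPKM with vehicle and 6.57 to 10.8 FPKM with TJ0113. The 5 B cell markers summed to at most 4.68 FPKM in any library. None of 7 endothelial, 10 distal nephron and collecting duct, and 3 tested fat and adrenal gland markers passed in either comparison with sham. The endothelial sum was 23.6 to 46.4 FPKM in sham and 35.8, 13.2 and 37.3 FPKM in vehicle libraries 1 to 3. With TJ0113 it was 25.2 to 43.7 FPKM. The distal sum was 947 to 1231 FPKM in sham and 565 to 1402 FPKM with vehicle. In TJ0113 libraries 1 to 3 it was 337, 1675 and 620 FPKM.

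The order of libraries within a group was shared as well. In the vehicle group library 2 was below library 1 and library 1 below library 3 for all 10 members, an order that 45.8 percent of all tested genes had. The summed macrophage and injured tubule markers had it too, and the proximal tubule sum had the reverse, with Kap or without, although single proximal tubule markers did not all follow. In the TJ0113 group 8 of 10 members had that order, Ripk1 and Casp1 being the exceptions, against 36.9 percent of all genes, and the macrophage and injured tubule sums again ran as they did with vehicle. The proximal tubule sum had the reverse order only through Kap: the other 11 markers summed to 3278, 3135 and 1932 FPKM in TJ0113 libraries 1 to 3. The part of leukocytes, of tubular injury and of the lower proximal tubule markers in the differences of the members was not tested.

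**Figure D3:**
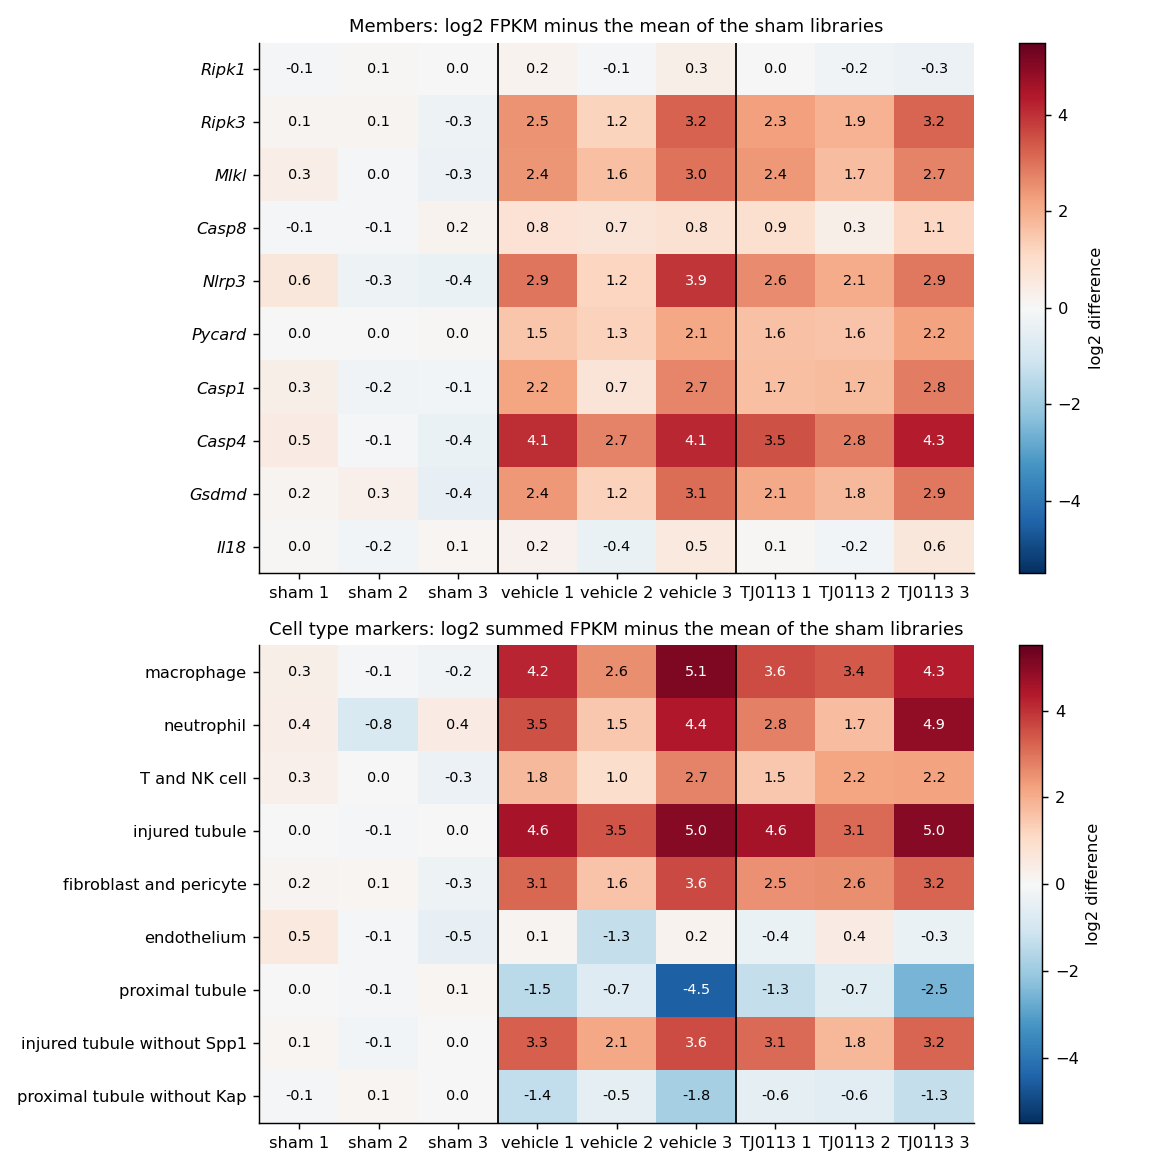
Heat maps of log2 FPKM of the members (top) and of the log2 summed FPKM of cell type markers (bottom) in each of the 9 libraries, minus the mean of the sham libraries, with the value printed in each cell. Casp4 stood 2.7 to 4.3 above sham in the injured libraries and Ripk1 within 0.33 of it, and vehicle library 3 had the highest macrophage sum. The proximal tubule sum of that library stood 4.5 below sham with Kap and 1.8 below without it.

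TJ0113 was compared with vehicle among injured mice to see what the compound did to these genes. None of the 10 passed the test, and the groups overlapped for each, where 2.96 percent of all genes lay apart with TJ0113 higher and 4.39 percent with TJ0113 lower. No gene of the 15453 passed the test (limma, Benjamini-Hochberg; 0 percent called), and 927 genes (6 percent) had an unadjusted p below 0.05, none of them a member. Between these 2 groups the median gene differed by -0.03 and log2 differences are given as fitted, with 95% intervals from limma turned into folds on the FPKM + 1 scale.

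Ripk1, the kinase at the head of the route, came closest, at 4.34, 3.86 and 3.56 FPKM with TJ0113 against 5.08, 4.06 and 5.54 with vehicle. TJ0113 libraries 2 and 3 were below all vehicle libraries and library 1 was not. The log2 difference was -0.26 ± 0.13 (SE; limma, Benjamini-Hochberg adjusted p = 0.810), with an interval of 0.680 to 1.03 fold. Ripk3 was at 1.91, 1.49 and 3.60 FPKM with TJ0113, within the range of the vehicle libraries, at a log2 difference of 0.07 ± 0.32 (SE; interval 0.639 to 1.73 fold). Mlkl was at 2.43, 1.54 and 3.07 FPKM with TJ0113, also within the vehicle range, at -0.07 ± 0.25 (SE; interval 0.648 to 1.39 fold). Casp8 spread more widely with TJ0113, at 22.2, 15.1 and 26.5 FPKM, and had a log2 difference of 0.02 ± 0.19 (SE; interval 0.754 to 1.35 fold).

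Among the pyroptosis genes Nlrp3 had the lowest point estimate, at 0.623, 0.433 and 0.786 FPKM with TJ0113 against 0.797, 0.234 and 1.60 with vehicle. The TJ0113 libraries lay inside the vehicle range, and the log2 difference was -0.16 ± 0.23 (SE; interval 0.623 to 1.29 fold). Casp4 was at 4.04, 2.55 and 7.10 FPKM with TJ0113, its highest value of all 9 libraries in TJ0113 library 3, at -0.09 ± 0.34 (SE; interval 0.550 to 1.61 fold). Gsdmd was at 8.61, 7.08 and 15.3 FPKM, inside the vehicle range, at 0.01 ± 0.39 (SE; interval 0.543 to 1.85 fold). Pycard was at 3.63, 3.47 and 5.44 FPKM (0.12 ± 0.20, SE; interval 0.794 to 1.48 fold). Casp1 was at 0.854, 0.908 and 1.89 FPKM (0.07 ± 0.25, SE; interval 0.712 to 1.54 fold). Il18 was at 2.31, 1.95 and 3.32 FPKM (0.03 ± 0.19, SE; interval 0.755 to 1.38 fold). For each of these 3 the groups overlapped, with TJ0113 library 3 the highest library of all. Over the 10 members the adjusted p (limma, Benjamini-Hochberg) lay between 0.810 for Ripk1 and 0.999 for Gsdmd. The intervals, widest for Casp4 and Gsdmd, hold changes in both directions, so a p above the threshold does not show that the groups were alike.

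TJ0113-treated bIRI was also compared with sham, which shares its sham libraries with the first comparison. Again 7 of 10 members rose and none fell, with 28.9 percent of all genes tested higher and 5.92 percent lower (34.8 percent called in all). Of the 5 members that passed the filter only through the injured groups 4 rose, and so did 51.3 percent of all genes with sham means under 0.5 FPKM. Among the 5 members with a sham mean of at least 0.5 FPKM 3 rose, where 26.6 percent of such genes did. With no filter on low values 5 of 10 members rose, against 7.69 percent of all genes, a share that again includes the genes averaging under 0.5 FPKM. For 8 of 10 members every TJ0113 library lay above sham, against 50.5 percent of all genes, and 14.6 percent of all genes lay below. Of all calls 83.0 percent were higher, against 45.4 percent with median-ratio scaling, 45.6 percent with quantile normalization and 43.0 percent with the median gene set equal. The median gene was 0.26 higher than in sham. Casp4 rose by 1.68 ± 0.34 (SE) relative to it, to 12.3 times the sham mean (limma, Benjamini-Hochberg adjusted p = 0.00900), and Pycard by 0.97 ± 0.20 (SE), to 3.57 times (0.00814). Both kept their calls in all 20 alternative settings, with a highest adjusted p of 0.0455 for Casp4 and 0.0422 for Pycard (limma, Benjamini-Hochberg). Gsdmd rose by 1.55 ± 0.39 (SE), to 4.91 times the sham mean (limma, Benjamini-Hochberg adjusted p = 0.0126), a call lost without sham library 3 (0.0516) or TJ0113 library 3 (0.0517).

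On the necroptosis side Mlkl rose by 0.89 ± 0.25 (SE), to 4.91 times the sham mean (limma, Benjamini-Hochberg adjusted p = 0.0118; 0.0501 without sham library 2 and 0.0511 without TJ0113 library 3). Ripk3 rose by 0.94 ± 0.32 (SE), to 5.85 times (limma, Benjamini-Hochberg adjusted p = 0.0214), and lost the call without any 1 sham library (0.054 to 0.0709), without TJ0113 library 3 (0.0818) and with no filter (0.0625). Casp8 rose by 0.48 ± 0.19 (SE), to 1.77 times (limma, Benjamini-Hochberg adjusted p = 0.0187), and lost the call with median-ratio scaling (0.142), with the median gene set equal (0.0982), without any 1 sham library (0.0505 to 0.0736) and without TJ0113 library 1 (0.0555) or 3 (0.0657). Ripk1 was at -0.41 ± 0.13 (SE) relative to the median gene, and -0.14 as fitted (limma, Benjamini-Hochberg adjusted p = 0.407). It was called lower with median-ratio scaling (limma, Benjamini-Hochberg adjusted p = 0.0132), quantile normalization (0.0161) and the median gene set equal (0.0148), so its call depends on how the libraries are scaled.

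Casp1, just short of the threshold with vehicle, was past it here, at 0.51 ± 0.25 (SE) and 4.44 times the sham mean (limma, Benjamini-Hochberg adjusted p = 0.0396). It lost the call in 10 of 19 alternatives, among them quantile normalization (0.0805), equal FPKM sums (0.0557), each fit without a sham library (0.0814 to 0.109), and the fits without vehicle library 1 (0.0569), TJ0113 library 1 (0.0555) or TJ0113 library 3 (0.143). Nlrp3 was at 0.27 ± 0.23 (SE) and 5.60 times the sham mean, and did not pass (limma, Benjamini-Hochberg adjusted p = 0.0972; 0.0326 with a pseudocount of 0.1 and 0.0233 without vehicle library 2). Il18 was at -0.13 ± 0.19 (SE) relative to the median gene and 0.13 as fitted (limma, Benjamini-Hochberg adjusted p = 0.615). Casp1 passed in one comparison with sham and Nlrp3 in the other, which does not show that the treatments differ, and the direct comparison called neither gene except Casp1 with sample weights (limma, Benjamini-Hochberg adjusted p = 0.0185), whose estimation did not converge.

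Ratios of FPKM between members within a library do not change when all its values are multiplied by 1 factor. Quantile normalization and the median gene set equal are not scalings of that kind. The ratios are given as values with no test. Ripk3 to Ripk1, Mlkl to Ripk1 and Gsdmd to Il18 each set a gene that rose over one that passed in neither comparison with sham. The FPKM ratio of Ripk3 to Ripk1 was 0.105, 0.0933 and 0.0730 in sham, 0.425, 0.227 and 0.672 with vehicle and 0.440, 0.386 and 1.01 with TJ0113. Every injured library was above every sham library, and in TJ0113 library 3 the pair reached equal levels. Mlkl and Ripk3, effector and kinase, kept close to each other, with a ratio between 0.854 and 1.59 over all 9 libraries and overlapping groups. The ratio of Casp4 to its neighbour Casp1 was 1.48, 1.40 and 1.13 in sham, 4.88, 5.42 and 3.56 with vehicle and 4.72, 2.81 and 3.76 with TJ0113. It did not overlap between sham and injured libraries. The ratio of Gsdmd to Il18, a pore former and a cargo of pyroptosis, was 0.647 to 1.28 in sham, 2.87 to 5.46 with vehicle and 3.64 to 4.60 with TJ0113, again with no overlap with sham.

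**Figure D4:**
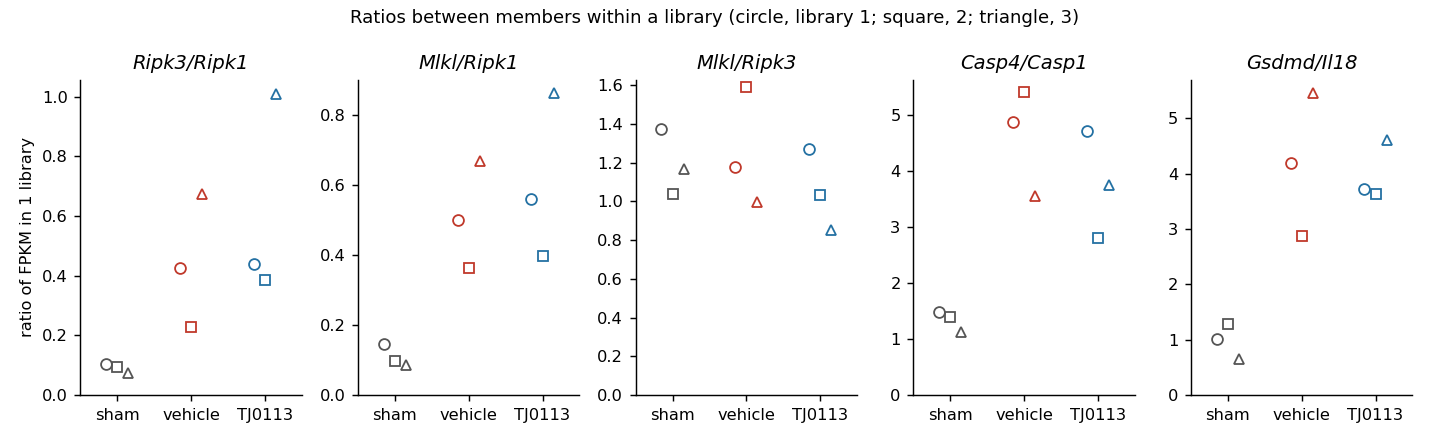
Ratio of FPKM between pairs of members within each library (vertical axes, each from 0) by group, 1 symbol per library. The ratios of Ripk3 and of Mlkl to Ripk1, of Casp4 to Casp1 and of Gsdmd to Il18 were higher in all 6 injured libraries than in sham, while that of Mlkl to Ripk3 overlapped between groups.

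The genes around the members were taken from 7 lists of 132 names, of which 129 were in the table and 114 were tested. Between sham and vehicle 66 of the 114 rose and 2 fell, their median lying 0.30 above the median gene, and between TJ0113 and vehicle none passed. The share of all tested genes that rose, 31.3 percent, stands behind the count of each list, and no list was tested against it. Some list genes that rose, among them Nlrp1b, Naip5, Aim2, P2rx7, Gbp5 and Pstpip1, had sham means under 0.5 FPKM. They passed the filter only through the injured groups, and 53.5 percent of all genes with such sham means rose. Upstream of necroptosis 16 of 27 tested genes rose and 1 fell. The ubiquitin ligase gene Birc3 (1.96 ± 0.35, SE), the ubiquitin-editing enzyme gene Tnfaip3 (1.89 ± 0.37), the TNF receptor gene Tnfrsf1a (1.18 ± 0.24) and the adaptor gene Traf2 (0.79 ± 0.18) had the smallest p-values, with limma's Benjamini-Hochberg adjusted p between 0.00755 and 0.00878. The gene that fell was Tnfsf10, the death ligand TRAIL, from 10.4, 8.47 and 11.4 FPKM in sham to 7.13, 7.03 and 7.65 FPKM (limma, Benjamini-Hochberg adjusted p = 0.0351).

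Among sensors and regulators of inflammasomes 11 of 17 tested genes rose and 1 fell, the guanylate-binding protein genes Gbp2 (1.29 ± 0.24, SE), Gbp3 (0.90 ± 0.24) and Gbp7 (0.68 ± 0.21) and the transcription factor gene Irf1 (1.03 ± 0.32) leading, with limma's Benjamini-Hochberg adjusted p between 0.00753 and 0.0167. Guanylate-binding proteins are known to expose bacterial lipopolysaccharide to caspase-11. The sensor gene Nlrc4, named as the one that fell, was at 1.48, 1.59 and 1.63 FPKM in sham and 1.07, 1.12 and 0.801 FPKM with vehicle (limma, Benjamini-Hochberg adjusted p = 0.0493). Of the interleukin-1 family 8 of 12 tested genes rose and none fell. Il1f6, which encodes interleukin-36 alpha, was listed at 0 in all sham libraries and at 7.67, 3.17 and 7.79 FPKM with vehicle. The receptor antagonist gene Il1rn was at 0.025, 0.026 and 0.016 FPKM in sham and at 2.92, 0.733 and 3.91 FPKM with vehicle, and the decoy gene Il18bp rose by 0.64 ± 0.16 (SE), so that Il18bp and Il1rn rose where Il18 did not pass. The receptor gene Il1r1 rose by 0.80 ± 0.28 (SE; limma, Benjamini-Hochberg adjusted p = 0.0196).

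Of the other gasdermins and the membrane rupture gene Ninj1, 4 of 9 named genes were tested and none passed. Gsdme was at 2.40, 2.27 and 2.66 FPKM in sham and 3.17, 2.64 and 3.08 FPKM with vehicle, and Ninj1 at 55.9, 52.4 and 56.8 against 48.4, 70.5 and 65.1 FPKM. Gsdmc2 and Gsdmc3, close paralogs that can share reads, were high in vehicle library 3 alone, at 7.76 and 8.77 FPKM. The 16 genes of membrane repair encode the ESCRT-III complex, which pinches off damaged membrane, and proteins that work with it, such as Pdcd6ip and Tsg101. Of these 6 rose and none fell, a share near the 31.3 percent of all genes. The smallest p-values were those of Chmp4b (0.49 ± 0.15, SE), Chmp2b (0.45 ± 0.22), Pdcd6ip (0.30 ± 0.19) and Ist1 (0.25 ± 0.18; limma, Benjamini-Hochberg adjusted p between 0.0104 and 0.0401). The median of the 16 was 0.02 relative to the median gene.

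Genes of apoptosis rose in 11 of 19 and fell in none. Pmaip1, a BH3-only gene, was at 2.25 ± 0.41 (SE), and the pore former genes Bak1 and Bax were at 1.23 ± 0.23 and 0.77 ± 0.23. Casp12, which adjoins Casp4 on chromosome 9, was at 1.25 ± 0.33. For these genes the adjusted p lay between 0.00753 and 0.0132 (limma, Benjamini-Hochberg). NF-kB genes that prime inflammasomes rose in 14 of 19 and fell in none, with a median of 1.15. Cd14, the lipopolysaccharide co-receptor, was at 3.36 ± 0.44 (SE), the receptor gene Tlr2 at 2.46 ± 0.39, and the subunit genes Relb at 2.28 ± 0.38 and Nfkb2 at 1.91 ± 0.32 (limma, Benjamini-Hochberg adjusted p between 0.00436 and 0.00745). The macrophage, tubular injury and proximal tubule markers given above moved in the same comparison, and their part in these lists was not tested here either. Against sham, TJ0113-treated cortex had 54 of the 114 genes higher and 5 lower. Of all genes tested 28.9 percent were higher and 5.92 percent lower, so the 5 stand near the share of all genes. Of genes with a sham mean under 0.5 FPKM, as some list genes had, 51.3 percent were higher. The 5 were Tnfsf10, Nlrc4, the Nlrp3 partner kinase gene Nek7, Cycs and Chuk, named after their values were seen.

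**Figure D5:**
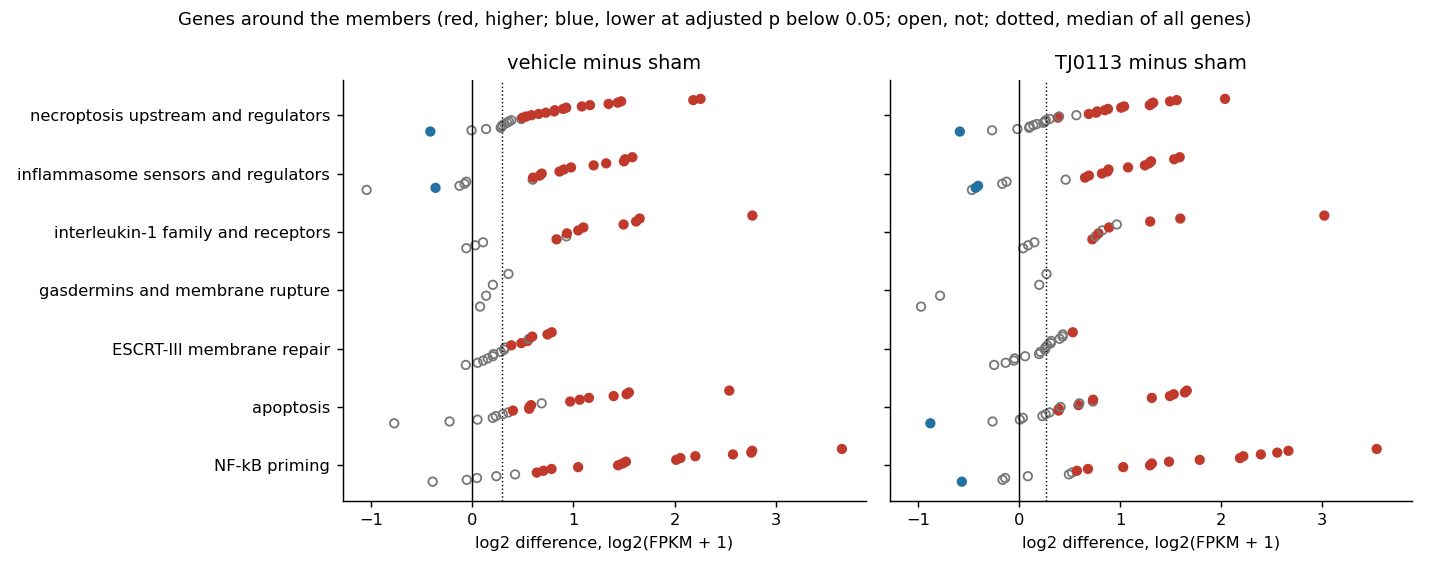
Log2 difference from sham as fitted (horizontal axes) of each tested gene of the 7 lists around the members, in vehicle and in TJ0113 libraries, coloured where the adjusted p is below 0.05. NF-kB genes reached furthest to the right, and the gasdermin and rupture list had no coloured point.

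The genes most like each member were found by Pearson's correlation of log2(FPKM + 1) over the 9 libraries, a description in which the points share 3 groups. Ripk3 ran closest to Adamtsl5, Ms4a14 and B4galt7 (r = 0.995 to 0.998). Mlkl ran closest to Ddah2, Pdlim7 and Rbpms, all at r = 0.997. For Gsdmd the nearest were Mmp23, the Toll-like receptor gene Tlr1 and the leukocyte signalling gene Vav1 (all 0.996). For Casp4 they were Mapk11, Klrb1b and Serpina3g (all 0.995), for Nlrp3 Nynrin, Rubcn and the macrophage elastase gene Mmp12 (0.993 to 0.996), and for Pycard Tarbp2, Zfp219 and Pkdcc (0.996 to 0.997). Casp1 was nearest to A630001G21Rik, Gm10134 and Tnrc6a (0.993 to 0.995) and Casp8 to the thymidylate synthase gene Tyms, the cytokine gene Il34 and 9830144P21Rik (0.980 to 0.985). The members that passed in neither comparison with sham had neighbours at lower r, Ripk1 with Eif3a, Tbc1d1 and Kif1c (0.956 to 0.965) and Il18 with Hmgxb4, Gm17249 and Rictor (0.953 to 0.971).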

How the data were processed

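The authors deposited FPKM for 34669 genes in 9 messenger RNA libraries made from 1 µg of cortex RNA each, and the submitters' processing notes name HISAT2 without a version. The counting tool, build and annotation: not given in the sources used here. Symbols came from GENCODE M21 for 33893 identifiers (97.8 percent). With its exon lengths 98.7 to 98.9 percent of the lowest FPKM values lay within 0.02 fragments of a multiple of 0.5 fragments, which gave the depth of each library. Replicates differed by 2.61 to 58.0 times counting noise (median squared difference), so none is a copy.

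Values were used as deposited, as log2(FPKM + 1), in 1 limma fit (all 9 libraries, prior variance following mean level) over the genes averaging 0.5 FPKM or more, with Benjamini-Hochberg adjustment over 15453 genes and a threshold of 0.05. The code was tested on simulated data. The replicate numbers were not treated as pairs. The members, the lists and the tests were chosen with earlier results of these data known. From each list around the members the 4 genes with the smallest p between vehicle and sham are named, with any that passed between TJ0113 and vehicle, and for each member the 3 most correlated genes. Also named, after their values were seen, are the list genes that fell. There were 20 alternative settings, 1 of them (the median gene set equal in every library) chosen after seeing the data, as were the marker sums without their largest gene. The fits ran in limma 3.58.1 (R 4.3.3). Tables and plots were made in Python 3.11.15 (pandas 2.3.3, numpy 2.4.6, matplotlib 3.10.9).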

Additional observations from a re-analysis of the deposited data

How the results depend on the processing

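Casp4 and Pycard kept their direction and their calls against sham under all 20 alternatives, with highest adjusted p-values of 0.0422 to 0.0455 (limma, Benjamini-Hochberg). No member passed between TJ0113 and vehicle under 19 of the 20. With 3 libraries a group, the widest interval between TJ0113 and vehicle, that of Gsdmd, reached from 0.543 to 1.85 fold on the FPKM + 1 scale, so changes within it could be missed. Against sham 7 members were called in each comparison; with no filter on low values 4 were called with vehicle, as were 4 with a mean of at least 2 FPKM, where the low members drop out by construction (4 with TJ0113 as well). With no filter 2933 genes and 38 list genes were called with vehicle and 3205 and 38 with TJ0113. Sample weights, whose estimation did not converge and gave vehicle library 1 a weight of 35.1 against 0.113 and 0.156 for the other two, called 12492 genes and 103 list genes with vehicle against sham, 10777 and 96 with TJ0113 against sham, and 9624 genes, 75 list genes and 3 members (Ripk1, Casp1 and Casp4) between TJ0113 and vehicle, where every other setting called 0. Leaving out 1 library at a time gave 2 to 8 members, 852 to 8826 genes and 18 to 85 list genes with vehicle against sham, and 2 to 8, 1249 to 7336 and 23 to 71 with TJ0113 against sham, against 0 to 0 of each between TJ0113 and vehicle.

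Several log2 differences that had not passed turned sign. With no filter Ripk1 (0.074) and Il18 (0.061) with vehicle and Il18 (0.095) with TJ0113 came out above the median gene. Between TJ0113 and vehicle, equal FPKM sums turned Ripk3 (-0.020), Casp1 (-0.0089), Casp8 (-0.10), Gsdmd (-0.11) and Il18 (-0.060), and sample weights Ripk3 (-0.10), Casp1 (-0.23, the one of these that passed), Gsdmd (-0.27) and Il18 (-0.095). Leaving out 1 library moved these differences from -0.26 to 0.38 for Ripk3, -0.32 to 0.15 for Mlkl, -0.19 to 0.28 for Casp1, -0.44 to 0.20 for Casp4, -0.15 to 0.23 for Casp8, -0.43 to 0.38 for Gsdmd, -0.049 to 0.31 for Pycard and -0.14 to 0.17 for Il18; the cause was not tested.

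Nothing in the sources used here says that replicate numbers pair the libraries, so they were not used as pairs. Deviations from the group mean correlated at -0.06, 0.50 and 0.56 between vehicle and TJ0113 for numbers 1 to 3, and at -0.08, -0.08 and -0.24 between sham and vehicle. Between sham and TJ0113 these correlations were -0.15, 0.03 and 0.03. Unlike numbers reached a similar size with the opposite sign, at -0.54 for vehicle 3 with TJ0113 2 and -0.54 for vehicle 2 with TJ0113 3. The other unlike pairs of vehicle and TJ0113 lay between -0.01 and 0.05. With the replicate number as a block 8 members, 6394 genes and 73 list genes were called with vehicle against sham, 7, 6062 and 64 with TJ0113 against sham, and 0 of each between TJ0113 and vehicle; Casp1 then passed with vehicle (limma, Benjamini-Hochberg adjusted p = 0.0266).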
